A study of Mus musculus with 3 samples.

Results

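Among the sites in mouse liver chromatin that were listed for both REV-ERB alpha and REV-ERB beta, 869 of 13314 leaned to REV-ERB alpha by at least 2-fold. They were chosen by position and tag count alone. An alpha peak and a beta peak were paired where their windows overlapped by 1 bp or more, and the number of unique tag positions in the alpha window was divided by that in the beta window. A tag is 1 sequenced read end, and a unique position counts all tags that start at the same base once. The log2 ratio was centred on its median over all pairs, where alpha held 0.944 times the beta number, and pairs with a centred value of 1 or more were kept. These 869 pairs made up 6.53% of all pairs, and the mirror group of 1017 pairs that leaned to REV-ERB beta made up 7.64%. Membership was thus decided by the difference between the antibodies itself, so that difference is given below as a description with no test.

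REV-ERB alpha and REV-ERB beta, encoded by Nr1d1 and Nr1d2, are nuclear receptors of the circadian clock. Both bind heme, and both lack the helix that other nuclear receptors use to recruit coactivators, so they act as repressors, mainly through the NCoR corepressor and the histone deacetylase HDAC3. They bind a hexamer with an AT-rich flank, which is also the site of the activating ROR receptors, either as monomers or as a pair of receptors on tandem hexamers. In the liver they oscillate over the day, repress the clock activator Arntl, and bind near many genes of lipid and bile acid metabolism.

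The data came from chromatin immunoprecipitation followed by sequencing of liver from male C57BL/6 mice aged 20 weeks. The mice had spent 3 days in cycles of 12 hours of light and 12 hours of dark and were sampled at ZT8, 8 hours into the light phase (zeitgeber time, counted from lights on). There were 3 libraries in all, 1 with antibody against REV-ERB alpha, 1 with antibody against REV-ERB beta, and 1 input library without antibody. No receptor-deficient liver was among the samples, so recognition of both receptors by 1 antibody was not tested, and with 1 library per antibody no value has an error across animals. Positions are in the mm9 assembly. Sites are named by position only, because no mm9 gene annotation or sequence was used here, and whether a site lies in a promoter, exon or intron is therefore not given. No RNA was measured in these libraries, so the tissue label was not checked against marker genes.

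The alpha-leaning sites combined an alpha signal above the usual level with a beta signal below it. The alpha window held a median of 43.0 unique positions (quartiles 33.0 and 59.0, range 20 to 164), against a median of 30.0 over all shared pairs. The beta window held a median of 19.0 unique positions (quartiles 14 and 25, range 10 to 76), against 33.0 over all shared pairs. Both terms of the ratio thus differed from the other shared sites, by the way the sites were chosen. In rank by unique positions, 98 members (11.3%) stood among the first 1000 of the 24461 alpha peaks, against 859 (6.45%) of all shared pairs. Among the first 1000 of the 22097 beta peaks there were 0 members, against 984 (7.39%) of all shared pairs. Both counts follow from the choice of sites.

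The lean was moderate at most members. The centred log2 ratio had a median of 1.21 (quartiles 1.08 and 1.39), 147 members reached 1.5, and 22 reached 2. The threshold cut through a continuous range of values: 239 members lay between 1 and 1.1, and 249 pairs lay just below, between 0.9 and 1. Counting error of a single ratio was wide. The 95% exact (Clopper-Pearson) interval lay wholly above the median ratio at 847 of the 869 members (97.5%) and wholly above 2-fold at 59 (6.79%). Over all pairs the counts were 1581 (11.9%) and 59 (0.443%). These intervals cover counting error only and are of the ratio by which the members were picked, so the counts describe precision and support nothing.

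**Figure D1:**
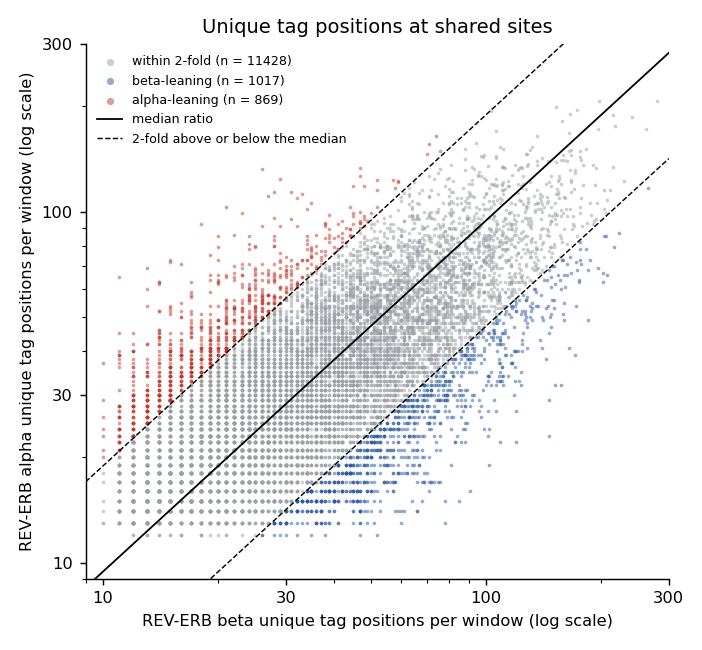
Unique tag positions in the beta window (horizontal axis) and the alpha window (vertical axis) of each of the 13314 shared pairs, both on log scales; the solid line is the median ratio of 0.944 and the dashed lines are 2-fold from it. The 869 alpha-leaning pairs lie above the upper dashed line by construction, and their alpha windows hold at most 164 positions, below the highest pairs near the median line.

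The member with the most alpha positions lay on chromosome 10 at 76579344 to 76579496. It held 164 alpha and 74 beta positions, from 301 alpha and 135 beta tags, against 8 input tags in the alpha window. By unique positions it was number 19 of the alpha peaks and number 1641 of the beta peaks. It was thus a strong alpha site with a beta signal that many other beta peaks exceeded. Its centred ratio was 1.23 (0.83 to 1.65). The 10 kb around it held 639 further alpha tags and 582 further beta tags, close to the usual balance.

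The next 3 sites had a similar lean. On chromosome 7 at 20270797 to 20270949 there were 156 alpha and 71 beta positions with 2 input tags. On chromosome 1 at 121190489 to 121190641 there were 149 alpha and 76 beta positions with 5 input tags, and on chromosome 16 at 30796303 to 30796455 there were 146 and 70 with 7 input tags. Their surroundings differed, however. Outside the chromosome 7 window the 10 kb held 290 alpha and 123 beta tags, so that the whole neighbourhood leaned to alpha (centred log2 1.21). Outside the chromosome 16 window it held 258 alpha and 358 beta tags, so that only the site itself leaned to alpha while its neighbourhood leaned the other way (centred log2 -0.50).

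Of the 10 members with the most alpha positions, 2 also stood among the 10 with the largest ratio at or above the median height, where height is the geometric mean of both position counts. The first was on chromosome 18 at 35974427 to 35974579, with 132 alpha and 26 beta positions and 1 input tag. Its alpha rank was 86 and its beta rank 10143, and the ratio was 5.38-fold above the median (centred log2 2.43, interval 1.81 to 3.09). The other was on chromosome 3 at 129582198 to 129582350, with 124 alpha and 29 beta positions and 6 input tags (centred log2 2.18, 1.59 to 2.82). The peak centres of both receptors coincided there to the base, at a distance of 0 bp, whereas those of the chromosome 18 site lay 79 bp apart. A second member lay 8646 bp from the chromosome 3 site, with 78 alpha and 41 beta positions.

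The remaining sites among the 10 with the most alpha positions held between 123 and 133 of them. On chromosome 4 at 88179535 to 88179687 there were 133 alpha and 47 beta positions, with 1 input tag in either window. On chromosome 11 at 75474984 to 75475136 there were 126 and 47. That site stood 123546 bp from the next alpha peak but 1121 bp from the next beta peak, so the beta list had a neighbouring peak where the alpha list had none. On chromosome 1 at 195137924 to 195138076 there were 123 and 57, and on chromosome 7 at 71041851 to 71042003 there were 123 and 52.

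The largest ratio at or above the median height was on chromosome 10 at 12363188 to 12363340. There 92 alpha positions faced 18 beta positions, with 4 input tags in each window, and the ratio was 5.42-fold above the median (centred log2 2.44, 1.70 to 3.25). Its surroundings were almost balanced, with 95 alpha and 88 beta tags in the rest of the 10 kb, so the lean was concentrated at the site. The alpha density in the window was 81.3 times that of the surroundings and the beta density 15.4 times. The nearest beta peak other than its own partner lay 55186 bp away, and an alpha peak without a beta partner lay 2844 bp away.

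Other sites of that set differed from it in setting. On chromosome 4 at 41577338 to 41577490 there were 103 alpha and 21 beta positions, and the surroundings also leaned to alpha, with 208 and 100 tags. On chromosome 11 at 115105240 to 115105392 there were 72 and 15 positions, and there the surroundings held 490 alpha and 222 beta tags. The beta density in that window was only 4.41 times that of its surroundings, near the floor of the beta list. A second member lay 961 bp from it, with 106 alpha and 35 beta positions.

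Chromosome 11 carried 2 more sites of that set. At 82631862 to 82632014 there were 73 alpha and 15 beta positions. At 18918970 to 18919122 there were 111 and 27, and the next beta peak there was 830704 bp away, while an alpha peak without partner lay at 1518 bp. On chromosome 5 at 137923258 to 137923410 there were 71 and 16 positions. On chromosome 17 at 28416286 to 28416438 there were 85 and 20, with an alpha peak without partner 757 bp away. The X chromosome gave 1 of the 10, at 74754628 to 74754780, with 99 alpha and 23 beta positions, 0 input tags in the alpha window and 2 in the beta window. In all 10 sites the beta window held 15 to 29 positions, so each ratio rests on few beta tags.

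The largest ratios of all lay below the median height, and these 2 sites were singled out after their values were seen. On chromosome 15 at 86006847 to 86006999 there were 65 alpha and 11 beta positions (centred log2 2.65, 1.71 to 3.72). On chromosome 9 at 80104997 to 80105149 there were 69 and 13 (centred log2 2.49, 1.62 to 3.47). The beta peak of the chromosome 15 site ranked 21415 of 22097 by unique positions, among the weakest of that list.

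At the threshold itself the sites on either side were alike. Just inside, a window on chromosome 14 (29829204 to 29829356) had 91 alpha and 48 beta positions (centred log2 1.01). Just outside, one on chromosome 17 (26708434 to 26708586) had 121 and 65 (0.98). A window on chromosome 11 (7052552 to 7052704) also missed the threshold (0.99), with 193 alpha and 103 beta positions. By all tags, 452 alpha and 163 beta, its centred value was 2.01, so it was kept out by the choice of unique positions.

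With the ratio centred over all pairs, members became rare among the strongest shared sites. In the lowest decile of height 46 of 1320 pairs leaned to alpha (3.48%, Wilson interval 2.62% to 4.62%), in the third 133 of 1331 (9.99%, 8.49% to 11.7%), and in the highest 18 of 1332 (1.35%, 0.857% to 2.13%). Pairs leaning to beta did not thin out in that way: they made up 9.76% of the highest decile (8.28% to 11.5%). In the lowest decile 0 of 1320 leaned to beta. The low end is tied to the floors of the lists, since pairs with few positions cannot reach 2-fold. The lowest alpha-leaning pair had a height of 14.1 and the lowest beta-leaning pair one of 17.7, above the top of the lowest decile at 17.0, so the count of 0 there is no finding about beta. The highest counts over all pairs were 207 alpha and 279 beta positions, in windows of 153 bp for alpha and 210 bp for beta. The shares also depend on the centring. With the ratio centred anew at or above the median height, 504 of the 6659 pairs there leaned to alpha, against 352 with the centring over all pairs. The deciles were not centred anew. What goes with the low share of members in the highest decile, the narrower alpha window included, was not tested.

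**Figure D2:**
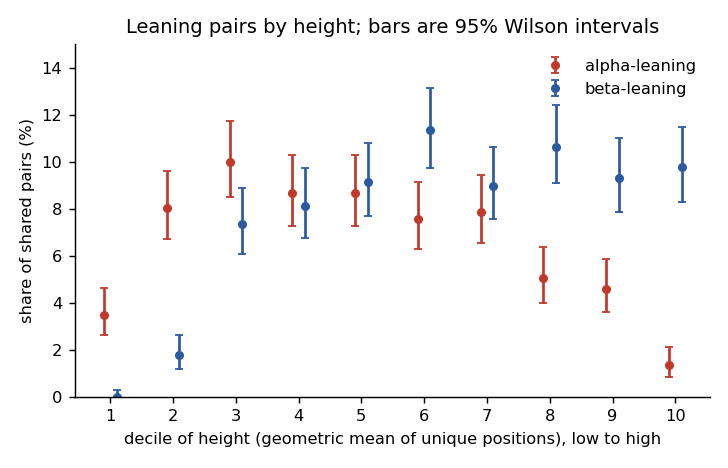
Share of shared pairs (vertical axis, percent) that leaned to alpha or to beta in each decile of height (horizontal axis, lowest to highest geometric mean of unique positions); points are shares and bars 95% Wilson intervals. With the ratio centred over all pairs, the alpha-leaning share has its highest value in the third decile, at 9.99%. Its lowest is in the last, at 1.35%, where the beta-leaning share is 9.76%.

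The lean did not depend on counting unique positions rather than tags at most members. With all tags, 770 of the 869 (88.6%) were still at least 2-fold above the median ratio of tags, against 8.40% of all pairs. The member windows held a median of 52.0 alpha tags and 30.0 beta tags, against 35.0 and 52.0 over all pairs. Repeated tags at 1 position were a little more frequent for alpha than at other shared sites, with a median of 1.24 tags per position against 1.17 over all pairs. For beta the values were 1.59 and 1.62. Since these measures come from the same pair of libraries, they describe the members and do not support them.

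Set against the tags of their own surroundings, only about 1 member in 2 kept a 2-fold lean. The density of tags in the window was divided by that in the rest of the 10 kb, for each receptor. The alpha density was a median of 20.1 times that of the surroundings at members and 13.2 times over all pairs, and the beta density 10.5 times and 14.6 times. On this scale 443 of the 869 members (51.0%) were still at least 2-fold above the median, against 8.18% of all pairs, and 28 members (3.22%) were below it. With tags over input tags, 595 members (68.5%) were at least 2-fold above the median, against 13.8% of all pairs. All 3 measures, all tags, density and tags over input, kept 335 members (38.6%), against 394 (2.96%) of all pairs.

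The chromatin around the members leaned to alpha as well. Outside the windows, the 10 kb held a median of 173 alpha and 133 beta tags at members, against 178 and 167 over all pairs. The alpha count around members was thus usual, and the beta count was low. The low beta count is not independent of the choice of sites. Density over surroundings had a floor in both lists. A window with few beta tags could thus be listed only where few beta tags lay around it. How much this floor adds to the alpha lean of the surroundings was not tested. The ratio of these outside tags was above its median at 670 of the 869 members (77.1%, 74.2% to 79.8%), at 50.4% of the pairs within 2-fold (49.5% to 51.4%) and at 21.8% of the beta-leaning pairs (19.4% to 24.5%). It was at least 2-fold above the median at 78 members (8.98%), against 2.52% of all pairs. It was at least 2-fold below at 4 members (0.460%), against 2.55% of all pairs. Across all 13314 pairs the centred ratio in the window and that outside it had a Pearson r of 0.39 and a Spearman rho of 0.38, as a description across sites that share both libraries.

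The same was seen where no other peak was near. Of the 441 members with no other peak of either list within 5 kb, 359 had outside tags above the median ratio (81.4%, 77.5% to 84.8%), against 61.3% of all such isolated pairs. The tags outside the window include the flanks of the peak itself, which rise and fall with it. The floor in density applies to isolated sites too. How much of the outside ratio comes from these flanks or from that floor was not tested.

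**Figure D3:**
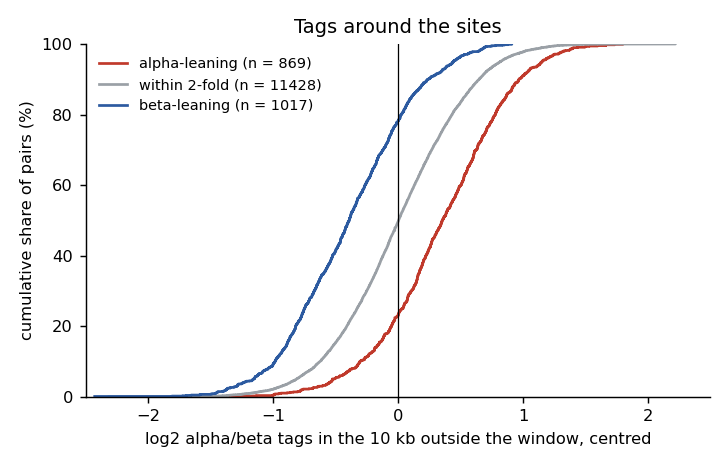
Cumulative share of pairs (vertical axis, percent) by the log2 ratio of alpha to beta tags in the 10 kb outside the windows, centred on its median over all pairs (horizontal axis), for the 3 sets of pairs. The curve of the 869 alpha-leaning pairs lies to the right of the curve of the pairs within 2-fold: 77.1% of them are above 0, against 50.4%.

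At single sites the difference between these settings was plain. On chromosome 9 at 80104997 to 80105149, one of the 2 sites with the largest ratios, 94 alpha and 133 beta tags lay outside the window, so the density ratio was larger than the ratio of positions (centred log2 3.45 against 2.49). On chromosome 5 at 137138799 to 137138951, which was picked after its values were seen, the window held 65 alpha and 33 beta positions and the surroundings 141 alpha and 48 beta tags. The alpha density there was 43.8 times and the beta density 48.6 times that of the surroundings. That site thus leaned to alpha by count and, by a small margin, to beta by density (centred log2 -0.04).

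Shared sites next to a member tended to lean to alpha too. Within 1 kb of a member, 44 of the 54 next shared sites along the chromosome were above the median ratio (81.5%), and their median centred log2 ratio was 0.49 (quartiles 0.16 and 0.92). Of these neighbours 10 were members themselves and 0 leaned to beta. Adjacent members each counted as a neighbour of the other, here and at the other distances. The intervals below treat such linked counts as separate. At 1 to 2 kb the median was 0.30 over 83 neighbours, at 2 to 5 kb 0.22 over 113, and at 5 to 10 kb 0.15 over 162. Farther away it was 0.08 over 501 neighbours at 10 to 50 kb and 0.15 over 659 at 50 to 500 kb. Next to pairs within 2-fold, the same medians were -0.05, -0.09, -0.11 and -0.05, with -0.01 and 0.08 farther away. Next to beta-leaning pairs they were -0.38, -0.32, -0.45 and -0.24, with -0.16 and 0.03 farther away. The medians of the 3 sets were thus closer together at 50 to 500 kb than at any distance up to 10 kb. Up to 10 kb, 38 of 412 neighbours of members (9.22%, 6.79% to 12.4%) leaned to alpha and 11 (2.67%, 1.5% to 4.72%) to beta. At 10 to 50 kb, 58 of 501 (11.6%, 9.06% to 14.7%) leaned to alpha, so this share was not highest up to 10 kb. Next to pairs within 2-fold, 5.06% leaned to alpha up to 10 kb and 6.25% at 10 to 50 kb. The share was thus lower up to 10 kb there too, and it was higher next to members at both distances. The shares over all pairs were 6.53% and 7.64%. Neighbours share both libraries and part of their 10 kb, so they are not independent of each other. The floor in density applies to neighbours too. Within 5 kb of a strong beta peak, a weak beta window can go unlisted and form no pair. How much this adds to the lean of neighbours was not tested.

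**Figure D4:**
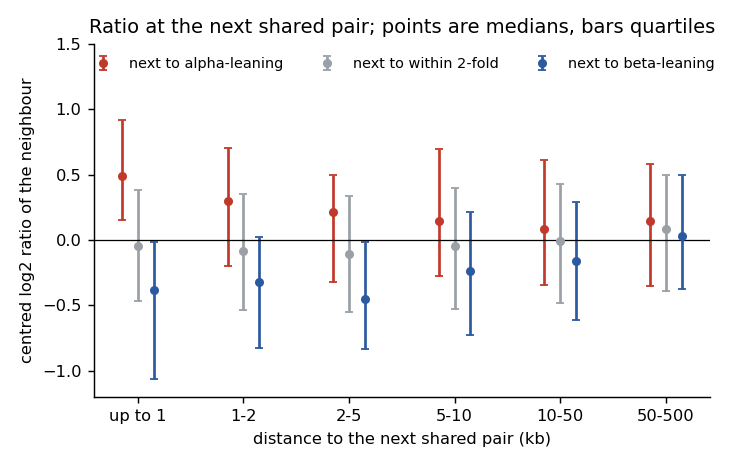
Centred log2 ratio of the next shared pair along the chromosome (vertical axis) by its distance in kb (horizontal axis), for neighbours of alpha-leaning pairs, pairs within 2-fold and beta-leaning pairs; points are medians and bars run between the quartiles. Next to alpha-leaning pairs the median is 0.49 up to 1 kb and 0.15 both at 5 to 10 kb and at 50 to 500 kb, and the quartile ranges of the 3 sets overlap at every distance but the shortest, where those next to alpha-leaning and beta-leaning pairs do not.

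Most members stood alone as members. With a limit of 10 kb from 1 member to the next, 830 were single, 18 groups held 2, and 1 group held 3. Members were only 6.53% of all pairs, and the other sets were not grouped in this way. The count of single members thus says nothing about clustering. The group of 3 spanned 8513 bp on chromosome 15. Its sites lay at 78662245 to 78662397 with 87 alpha and 42 beta positions, at 78663433 to 78663585 with 26 and 13, and at 78670758 to 78670910 with 40 and 21. No other shared pair lay within that span, so every shared site there leaned to alpha. The closest 2 members were on chromosome 3, 592 bp apart, at 80088674 to 80088826 with 52 alpha and 21 beta positions and at 80089266 to 80089418 with 24 and 12.

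Several of the strongest members belonged to such groups. The chromosome 7 site with 156 alpha positions had a second member 4020 bp away, at 20266777 to 20266929 with 70 alpha and 30 beta positions. The chromosome 1 site with 149 alpha positions had one 1349 bp away, at 121191838 to 121191990 with 73 and 37. On chromosome 15 a site with 122 alpha and 59 beta positions, at 101857048 to 101857200, stood 924 bp from one with 55 and 26, at 101856124 to 101856276. In these 3 groups the centred log2 values of the strong and the weak site were 1.22 and 1.31, 1.05 and 1.06, and 1.13 and 1.17. Other groups were less even: the values were 2.18 and 1.01 at the chromosome 3 site with 124 alpha positions, and 2.35 and 1.68 at the pair of members on chromosome 11. All sites of these groups were chosen for a value of 1 or more.

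Members lay farther from the next peak of each list than shared pairs did as a whole. The next alpha peak was a median of 7269 bp away, against 5503 bp over all pairs, and the next beta peak 7948 bp, against 5398 bp. The nearest alpha peak without a beta partner was about as far, at 22040 bp against 22416 bp. For beta peaks without an alpha partner the medians were 35065 bp and 22336 bp. Another alpha peak lay within 10 kb of 495 members (57.0%, 53.6% to 60.2%), against 64.1% of all pairs (63.3% to 64.9%). At or above the median height, 66.5% of members (61.4% to 71.2%) and 72.4% of all pairs (71.3% to 73.4%) had such a neighbour. The share was thus lower at members there too, and what goes with this was not tested.

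Peaks found for beta alone lay near fewer of the members than of the other shared pairs, by list counts. A beta peak without an overlapping alpha peak lay within 10 kb of 218 members (25.1%, 22.3% to 28.1%), of 32.3% of the pairs within 2-fold (31.4% to 33.1%) and of 33.6% of the beta-leaning pairs (30.8% to 36.6%). Alpha peaks without a beta partner lay within 10 kb of 264 members (30.4%, 27.4% to 33.5%), close to the 32.4% of the pairs within 2-fold (31.5% to 33.2%). Counted as peaks, 335 alpha-only and 268 beta-only peaks were within 10 kb of members, a ratio of 1.25. The ratio was 1.02 around pairs within 2-fold and 0.89 around beta-leaning pairs. At or above the median height a beta-only peak lay within 10 kb of 28.4% of members (24% to 33.3%) and 34.0% of pairs within 2-fold (32.8% to 35.2%), with intervals that overlapped. This turned with the measure of the lean: of the 1089 pairs that leaned to alpha in density over surroundings, 39.4% had a beta-only peak within 10 kb. A beta-only peak within 5 kb adds to the beta surroundings and so lowers the beta density. The counts by list are affected as well. Next to such a peak, a weak beta window can fall below the density floor of the list and form no pair. How far this lowers the 25.1% at members or raises the ratio of 1.25 was not tested. The intervals treat sites as independent, which neighbouring sites are not, and no test across animals was possible.

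Mean input in the alpha window was slightly higher at members and lower at beta-leaning pairs. The alpha window held a mean of 3.12 input tags at members, 2.84 at pairs within 2-fold and 2.23 at beta-leaning pairs. The highest input of any member was 13 tags. No input tag was found at 87 members (10.0%, 8.19% to 12.2%), at 11.6% of the pairs within 2-fold (11% to 12.2%) and at 15.7% of the beta-leaning pairs (13.6% to 18.1%). At least 8 input tags were found at 37 members (4.26%, 3.10% to 5.81%), against 3.22% of all pairs (2.93% to 3.53%). In the beta window the mean input was 3.88 at members, 3.85 at pairs within 2-fold and 3.19 at beta-leaning pairs. Mean input in the alpha window thus moved with the lean, but the intervals for windows without input overlapped between members and pairs within 2-fold. In the beta window only the beta-leaning pairs stood apart. The part of input in the ratios was not tested.

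The centres of both peaks lay as close together at members as elsewhere. The distance had a median of 27.0 bp (quartiles 13.0 and 49.0) at members and 28.0 bp over all pairs, and 661 members (76.1%, 73.1% to 78.8%) had centres within 50 bp, against 75.2% of all pairs (74.5% to 75.9%). A low beta count was therefore not accompanied by a beta centre farther from the alpha centre.

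All 19 chromosomes on which both lists had peaks carried members. Their share ran from 36 of 850 pairs on chromosome 6 (4.24%, 3.08% to 5.81%) to 50 of 578 on chromosome 17 (8.65%, 6.62% to 11.2%). The intervals of these 2 chromosomes did not overlap, but they were picked as the extremes of 19. Chromosome 6 also had a high share leaning to beta, 9.41%, and chromosome 17 a share of 6.75%. On the X chromosome, of which male cells hold a single copy, 7 of 118 pairs leaned to alpha (5.93%, 2.90% to 11.7%) and 17 to beta (14.4%, 9.19% to 21.9%). The median centred ratio on X was -0.23, whereas the autosomes lay between -0.07 and 0.05.

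**Figure D5:**
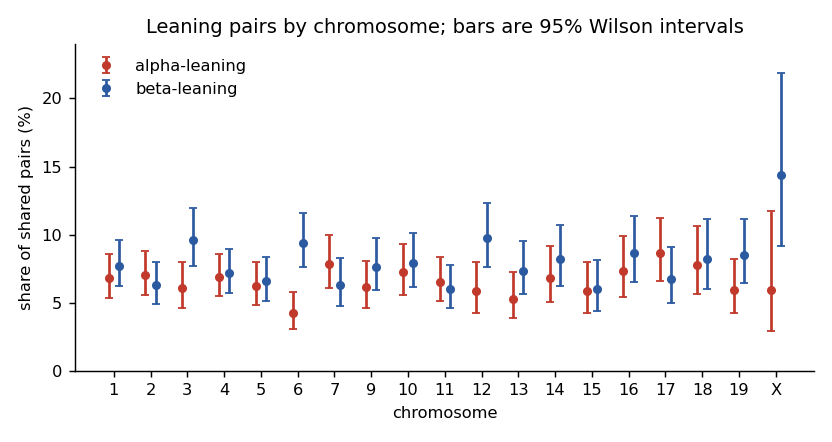
Share of shared pairs (vertical axis, percent) that leaned to alpha or to beta on each chromosome with pairs (horizontal axis); points are shares and bars 95% Wilson intervals. The alpha-leaning share lies between 4.24% on chromosome 6 and 8.65% on chromosome 17, and the widest intervals are those of X, which holds 118 pairs.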

How the data were processed

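Bowtie, HOMER and mm9 are named in the submitters' processing notes; neither versions and read filters nor library totals are stated there. Each antibody has 1 peak list from the authors, made from a single library. The deposited counts are, per the file headers, raw and unscaled: unique tag positions, all tags and input tags in the window (153 bp for alpha, 210 bp for beta), and tags in 10000 bp. All alpha windows together held 910669 tags and all beta windows 1227074. The deposited peak score and the FDR, which was 0 throughout, were not used.

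Members were kept at a centred log2 ratio of 1 or more. Tags over input had 1 added to both counts. Neighbouring peaks were counted within 10 kb between centres, and isolated pairs had none within 5 kb. Shares have 95% Wilson intervals. With 1 library per antibody there was no test. The sites named are the 10 members with the most alpha positions, the 10 with the largest ratio at or above the median height, and examples from the 4 strongest of the 50 pairs nearest the threshold on each side. The members, lists and tests were chosen with earlier results of these data known. The planned promoter distances, gene lists and motifs need mm9 annotation or sequence and were not run. The beta list as used here holds 0 peaks on chromosome 8. Pairing and the ratio rule were tested on simulated data. Python 3.11.15, numpy 2.4.6, pandas 2.3.3, scipy 1.17.1 and matplotlib 3.10.9 were used.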

Additional observations from a re-analysis of the deposited data

Results flagged for a closer look

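The alpha list holds 1415 peaks on chromosome 8 that could not be paired, because the beta list as used here has 0 peaks there; this signal outside the comparison had a median of 24 unique positions and a mean input of 2.68 tags, and whether any of these sites would lean to alpha is not known. No group had the 4 libraries needed to look for an outlying one.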

How the results depend on the processing

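Under 5 of 10 alternatives the number of alpha-leaning pairs stayed within 1.5 times 869. It was 382 of the 7420 pairs with tags at least 8 times the input tags plus 1. It was 1839 with tags over input and 147 at a centred log2 ratio of 1.5 or more. At or above the median height it was 504 of 6659 with the ratio centred anew, against 352 on the main centring. With no other peak within 5 kb it was 353 of 5681 with the ratio centred anew, against 441 on the main centring. Fewer pairs enter where the total is 7420, 6659 or 5681, so those counts are not on the scale of 869. The share without an input tag, 10.0%, became 21.7% with the limit on input and 27.7% with tags over input, both of which favour such windows by construction. It became 5.36% at or above the median height, where it was 8.51% over all pairs, and 12.9% with density over surroundings. The share with another alpha peak within 10 kb, 57.0%, became 60.7% with the limit on input, 68.3% at or above the median height and 51.7% at 1.5 or more. Within 50 kb it was 86.1%, a wider limit that can only raise it. The share with surroundings above the median ratio, 77.1%, became 68.2% with tags over input, 84.4% at 1.5 or more, 82.4% with no other peak within 5 kb, and 27.2% with density, which divides by the surroundings. The share with a beta-only peak within 10 kb, 25.1%, became 28.2% at or above the median height, 29.4% with tags over input and 39.4% with density. Where no construction is named, the cause was not tested. Under the other alternatives, namely 50% overlap, centres within 100 bp, all tags and autosomes only, all 5 results moved by less than their intervals or 1.5 times. The isolated pairs, and all alternatives for surroundings and beta-only peaks, were chosen after seeing the data. The alternatives for promoters and motifs were not run. No paired analysis was possible because there were no replicate libraries, so none could be left out either. Depth limits single ratios: the median member had 19.0 beta positions.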
